A study of Sus scrofa with 11 samples.

Results

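RNA levels of 4 Schwann cell and neurotrophin receptor genes, NTRK2, MBP, PRX and SCN7A, were followed in porcine coronary artery. The symbols were taken as a named list, chosen with earlier results of these data known. They were matched to the Ensembl pig identifiers of the count tables, with 1 identifier for each symbol. The tables hold 25880 gene identifiers. All 4 genes passed the filter on low counts, which left 15348 genes for testing.

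Total RNA of coronary arteries was sequenced in 11 libraries, in a study of vessel culture as a model for stent testing. Native vessels (Native control) gave 2 libraries, and every other library came from a bioreactor. Stented static vessels (Stent/Flow -, 2 libraries) carried a stent and were held without flow. Stented high-flow vessels (Stent/Flow ++, 3 libraries) carried a stent and were kept under flow. High-flow vessels (Flow ++, 2 libraries) were kept under flow of the same mark and carried no stent, and low-flow vessels (Flow +, 2 libraries) had the lower flow mark and no stent. The labels used here state neither breed, age, sex nor days in culture, nor whether replicate libraries were taken from different animals. The labels give the number 25 both to native replicate 2 and to the first stented high-flow library, without saying what it marks, and it was not used for pairing. The p-values therefore measure only the spread between these libraries, which may be technical. Both stented static labels carry the suffix 3d and that of stented high-flow replicate 3 carries 7d, without an explanation, so whatever the suffix marks cannot be told apart from the static group.

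Schwann cells are the glia of peripheral nerves, and in an artery they accompany the nerve fibres that run through the adventitia. Myelinating Schwann cells wrap a single axon in a compacted membrane sheath, whereas non-myelinating Schwann cells ensheath bundles of thin, mostly autonomic and sensory axons. MBP encodes myelin basic protein, which holds the cytoplasmic faces of the sheath together. PRX encodes periaxin, which links the outer Schwann cell membrane through DRP2 and dystroglycan to the surrounding basal lamina. SCN7A encodes an atypical sodium channel that responds to extracellular sodium rather than to voltage and is found in glia, including non-myelinating Schwann cells. NTRK2 encodes TrkB, the receptor for the neurotrophins BDNF and NT-4, which occurs in neurons, glia and other cells, both as a full-length kinase and as a truncated form. Counts per gene do not separate these forms.

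In the Sscrofa11.1 assembly, RefSeq places NTRK2 (ENSSSCG00000010959) on chromosome 10 from 30030050 to 30429938, with 9 annotated transcripts. MBP (ENSSSCG00000038767) lies on chromosome 1 from 147649516 to 147685289. PRX (ENSSSCG00000038439) spans chromosome 6 from 48675230 to 48691760, and SCN7A (ENSSSCG00000015914) spans chromosome 15 from 72946147 to 73026656. Each of these 3 genes has 1 annotated transcript in the same table. The counts are given per gene and not per transcript. Levels are therefore not ranked between genes here, and ratios between genes are read only across libraries.

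Library totals lay between 13496636 and 26785124 counts, and 3 counts in a single library corresponded to 0.105 to 0.215 CPM (counts per 1000000, on library sizes scaled by the trimmed mean of M-values). Pearson correlations of log2 CPM between libraries of a group were 0.932 to 0.980, and no pair was close enough to be 1 library deposited again. Some libraries stood apart in the markers of other cells. Native replicate 2 held 249.8 CPM of 21 axonal and neuronal genes in sum against 39.7 CPM in native replicate 1, and native replicate 1 held 2186 CPM of 8 cardiomyocyte genes against 733 CPM in replicate 2. Stented static replicate 1 held 2701 CPM of 8 adipocyte genes against 257 CPM in replicate 2. Results are therefore given with the values obtained when single libraries were left out. In bulk tissue, fewer cells of a type and less RNA per cell cannot be told apart.

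All 4 genes were lower in cultured than in native vessels, and the groups differed in how far each gene fell. PRX was about equally low in every culture. NTRK2 formed a graded series, highest in stented static and lowest in both high-flow groups. MBP and SCN7A lay between these patterns. Set against the mean of the 4 cultured groups, all 4 genes were called lower by edgeR's quasi-likelihood test at a Benjamini-Hochberg adjusted p under 0.05, where 15.9% of all genes tested were called lower and 25.7% in either direction. In that comparison the 9 cultured libraries lay below both native libraries for each of the 4 genes, as they did for 16.9% of genes. Because the genes were chosen with earlier results known, the shares of all genes describe the background and do not test the choice.

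NTRK2 was measured at 192 and 215 CPM in the native libraries. Stented static vessels gave 63.9 and 143 CPM, low-flow vessels 40.7 and 28.1 CPM, and high-flow vessels 5.95 and 5.65 CPM. Stented high-flow vessels gave 2.51, 4.66 and 3.84 CPM. No groups overlapped, and the means ran in the order native, stented static, low-flow, high-flow and stented high-flow. Mean levels were 203 ± 16.6 CPM in native (SD, n = 2), 103 ± 55.8 in stented static (n = 2), 34.4 ± 8.92 in low-flow (n = 2), 5.80 ± 0.217 in high-flow (n = 2) and 3.67 ± 1.08 in stented high-flow vessels (n = 3). As shares of the native mean these are 50.9%, 16.9%, 2.85% and 1.81%. The spread was widest in the stented static pair, whose libraries differed by 2.24-fold.

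**Figure D1:**
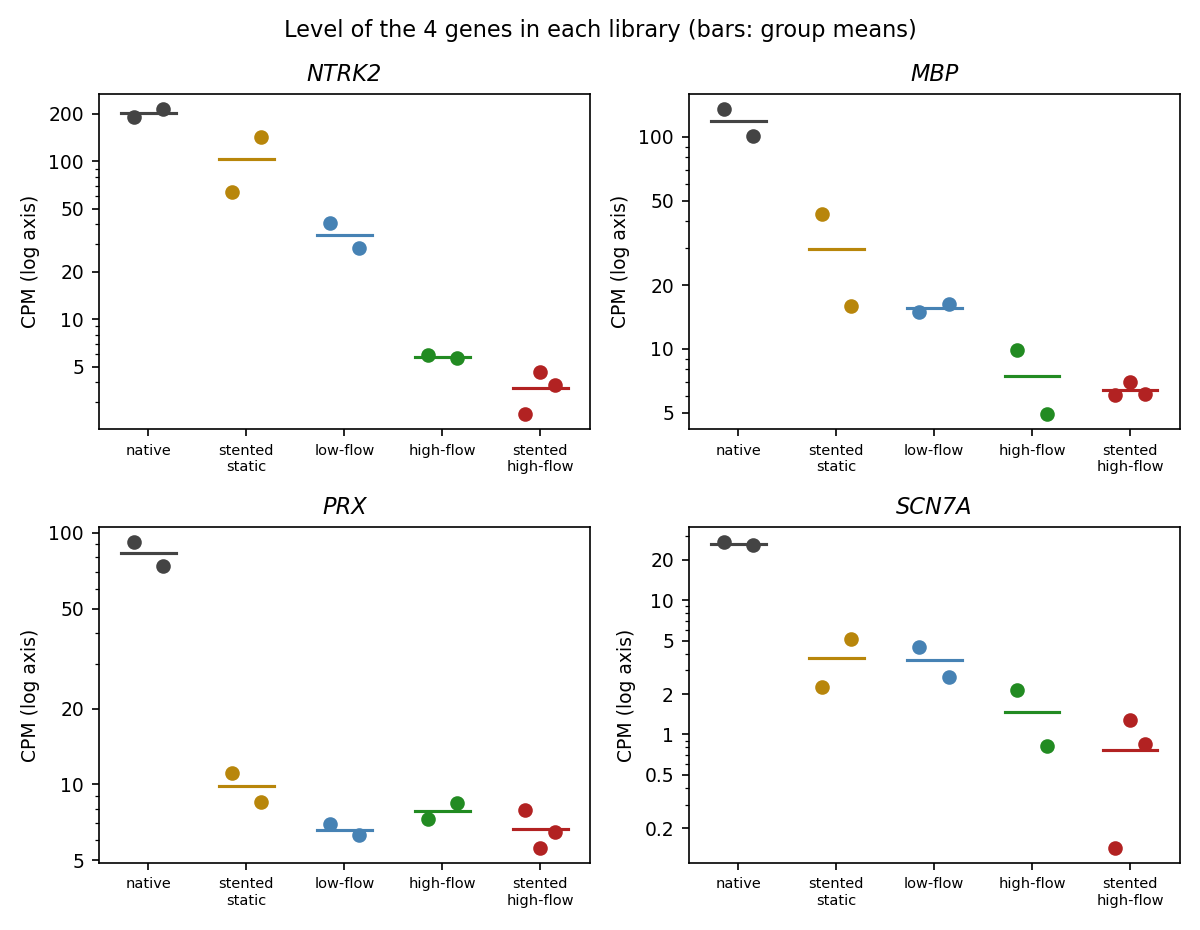
Level of NTRK2, MBP, PRX and SCN7A in each of the 11 libraries, in CPM on a log axis, by group. Points are libraries and bars are group means. NTRK2 runs from 203 CPM in native to 3.67 CPM in stented high-flow vessels, while PRX lies between 5.61 and 11.105 CPM in all 9 cultured libraries.

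Against native, NTRK2 fell by 5.78 ± 0.40 on the log2 scale in stented high-flow vessels (estimate ± standard error, edgeR adjusted p = 3.7e-05) and fell by 5.13 ± 0.47 in high-flow vessels (adjusted p = 0.000347). It fell by 2.56 ± 0.41 in low-flow vessels (adjusted p = 0.00352), a call lost without low-flow replicate 2 (adjusted p = 0.0591). In stented static vessels the estimate of -0.98 ± 0.39 missed the threshold (adjusted p = 0.123), with a 95% interval from -1.84 to -0.12. Without stented static replicate 2, the higher library of the pair, that estimate was -1.67 and passed (adjusted p = 0.0302). These comparisons share their 2 native libraries, and their values are given side by side for that reason.

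Neighbouring steps of the NTRK2 series did not pass the test, whereas steps 2 groups apart did. Low-flow against stented static gave -1.59 ± 0.40 (edgeR adjusted p = 0.218), low-flow against high-flow 2.57 ± 0.42 (adjusted p = 0.0617) and stented high-flow against high-flow -0.65 ± 0.37 (adjusted p = 1). High-flow vessels lay below stented static vessels by -4.15 ± 0.45 (adjusted p = 0.00266), and stented high-flow vessels lay below low-flow vessels by -3.22 ± 0.37 (adjusted p = 0.00510). Low-flow and high-flow vessels differ from stented static vessels in the stent as well as in flow, as stented high-flow vessels do from low-flow. Cultures with and without a stent were also deposited in separate count tables, so the stent cannot be told apart from whatever differs between those tables. Only the static labels carry the suffix 3d. Stented high-flow against stented static, both with a stent, gave -4.81 ± 0.39 (edgeR adjusted p = 0.000518), the second smallest p of all genes in that comparison. Leaving out single libraries moved this last value between -5.28 and -4.10, and every such fit kept the call.

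The 2.57 log2 difference of NTRK2 between low and high flow lay close to the threshold. It passed with DESeq2 (adjusted p = 4.22e-06), without a filter on low counts (0.00237) and in a fit of the native, high-flow and low-flow libraries alone (0.00860). It also passed without stented static replicate 1 (0.0138), without stented static replicate 2 (0.0153) and without stented high-flow replicate 1 (0.0482), none of which belongs to the groups compared. Over all libraries left out in turn, its adjusted p ranged from 0.0138 to 0.445 and the estimate from 2.27 to 2.81.

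MBP was measured at 136 and 101 CPM in native libraries and at 43.2 and 15.997 CPM in stented static libraries. Low-flow vessels gave 14.9 and 16.3 CPM, high-flow vessels 9.92 and 4.93 CPM, and stented high-flow vessels 6.03, 7.01 and 6.14 CPM. The native libraries lay above all others, the stented static and low-flow ranges overlapped, and so did the high-flow and stented high-flow ranges. Group means were 118 ± 24.6 CPM in native vessels, 29.6 ± 19.2 in stented static, 15.6 ± 0.974 in low-flow, 7.42 ± 3.53 in high-flow and 6.39 ± 0.540 in stented high-flow vessels (SD, n = 2, and n = 3 in the last). Their order was that of NTRK2.

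Relative to native, MBP fell in all 4 cultured groups. The log2 fold changes were -4.21 ± 0.43 in stented high-flow (edgeR adjusted p = 0.000162), -3.99 ± 0.50 in high-flow (0.000980), -2.92 ± 0.47 in low-flow (0.00368) and -1.997 ± 0.45 in stented static vessels (0.0179). The low-flow call was lost without low-flow replicate 1 (0.0559). The stented static call was lost when native replicate 1 (0.106) or native replicate 2 (0.0645) was left out, and also in the absence of stented static replicate 2, where the estimate was -1.45 (0.0574). Without stented static replicate 1, the higher of the pair, the estimate was -2.87 (0.00872).

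Between cultures, MBP fell by 2.21 ± 0.41 from stented static to stented high-flow vessels (edgeR adjusted p = 0.0199). This call rests on stented static replicate 1, without which the estimate was -1.33 (adjusted p = 0.178), and on stented high-flow replicate 2, without which the adjusted p was 0.0614. Low-flow against high-flow gave 1.07 ± 0.45 (adjusted p = 0.602) and stented high-flow against high-flow -0.22 ± 0.41 (adjusted p = 1, 95% interval from -1.13 to 0.69). The sign of the last difference turned to 0.38 without high-flow replicate 1. Of the neighbouring steps, only native against stented static passed.

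PRX was measured at 91.8 and 73.9 CPM in native vessels. The cultured libraries gave 11.105 and 8.52 CPM in stented static, 6.94 and 6.29 in low-flow, 7.28 and 8.47 in high-flow libraries and 7.89, 5.61 and 6.46 in stented high-flow vessels. All 9 cultured values thus lay between 5.61 and 11.105 CPM, far below either native library. Group means were 82.9 ± 12.7 CPM in native vessels, 9.81 ± 1.83 in stented static, 7.87 ± 0.844 in high-flow, 6.66 ± 1.15 in stented high-flow and 6.61 ± 0.457 in low-flow vessels (SD, n = 2, and n = 3 in stented high-flow). The cultured means are 11.8%, 9.50%, 8.03% and 7.98% of native in that order.

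PRX fell in all 4 cultured groups, with log2 fold changes of -3.64 ± 0.27 in stented high-flow (edgeR adjusted p = 4.88e-05), -3.39 ± 0.31 in high-flow (0.000350), -3.65 ± 0.32 in low-flow (0.000247) and -3.08 ± 0.31 in stented static vessels (0.000458). These calls were kept in all fits that left out a library, with adjusted p between 3.22e-05 and 0.00656 over the 4 comparisons with native. Against the mean of the cultured groups PRX had rank 10 of 15348 genes by p.

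No difference of PRX between cultures passed the test. Stented high-flow against stented static was -0.56 ± 0.26 (edgeR adjusted p = 0.274, 95% interval from -1.14 to 0.02). Low-flow against high-flow was -0.25 ± 0.29 (0.841, interval from -0.89 to 0.39), and stented high-flow against high-flow was -0.24 ± 0.27 (1, interval from -0.83 to 0.34). These intervals do not show that the cultures were alike, but for PRX they leave out differences of the size measured for NTRK2 between stented static and stented high-flow vessels.

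SCN7A was measured at 27.1 and 25.8 CPM in native libraries, from 416 and 449 counts. Stented static vessels gave 2.25 and 5.17 CPM, low-flow vessels 4.45 and 2.69 CPM, and high-flow vessels 2.14 and 0.821 CPM. Stented high-flow vessels gave 0.144, 1.29 and 0.843 CPM, the first from 2 counts, which is under the 3 counts taken here as the floor of a library. The native libraries stood above all others, while stented static and low-flow overlapped and high-flow and stented high-flow overlapped. Group means were 26.5 ± 0.892 CPM in native vessels, 3.71 ± 2.06 in stented static, 3.57 ± 1.25 in low-flow, 1.48 ± 0.930 in high-flow and 0.759 ± 0.578 in stented high-flow vessels (SD, n = 2, and n = 3 in the last).

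SCN7A fell in all 4 cultured groups. The log2 fold changes were -5.08 ± 0.69 in stented high-flow (edgeR adjusted p = 0.000715), -4.15 ± 0.78 in high-flow (0.00632), -2.89 ± 0.72 in low-flow (0.0262) and -2.84 ± 0.72 in stented static vessels (0.0288). The first of these kept its call in every fit that left out a library, stented high-flow replicate 1 included, with estimates from -5.64 to -4.63. The high-flow call was lost without high-flow replicate 2, with an estimate of -3.58 (0.0510). The low-flow call was lost when any library of the groups compared was left out, native replicate 1 (0.113), native replicate 2 (0.109), low-flow replicate 1 (0.128) or low-flow replicate 2 (0.189). The stented static call was lost when native replicate 1 was left out (0.115), and likewise for native replicate 2 (0.127) and the lower stented static library, replicate 1 (0.152).

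Between cultures, SCN7A was not called. Stented high-flow against stented static gave -2.24 ± 0.66 (edgeR adjusted p = 0.0973), which passed with DESeq2 (0.009999) and without a filter on low counts (0.0289). Low-flow against high-flow gave 1.27 ± 0.72 (0.681), and stented high-flow against high-flow gave -0.92 ± 0.69 (1, 95% interval from -2.43 to 0.59).

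**Figure D2:**
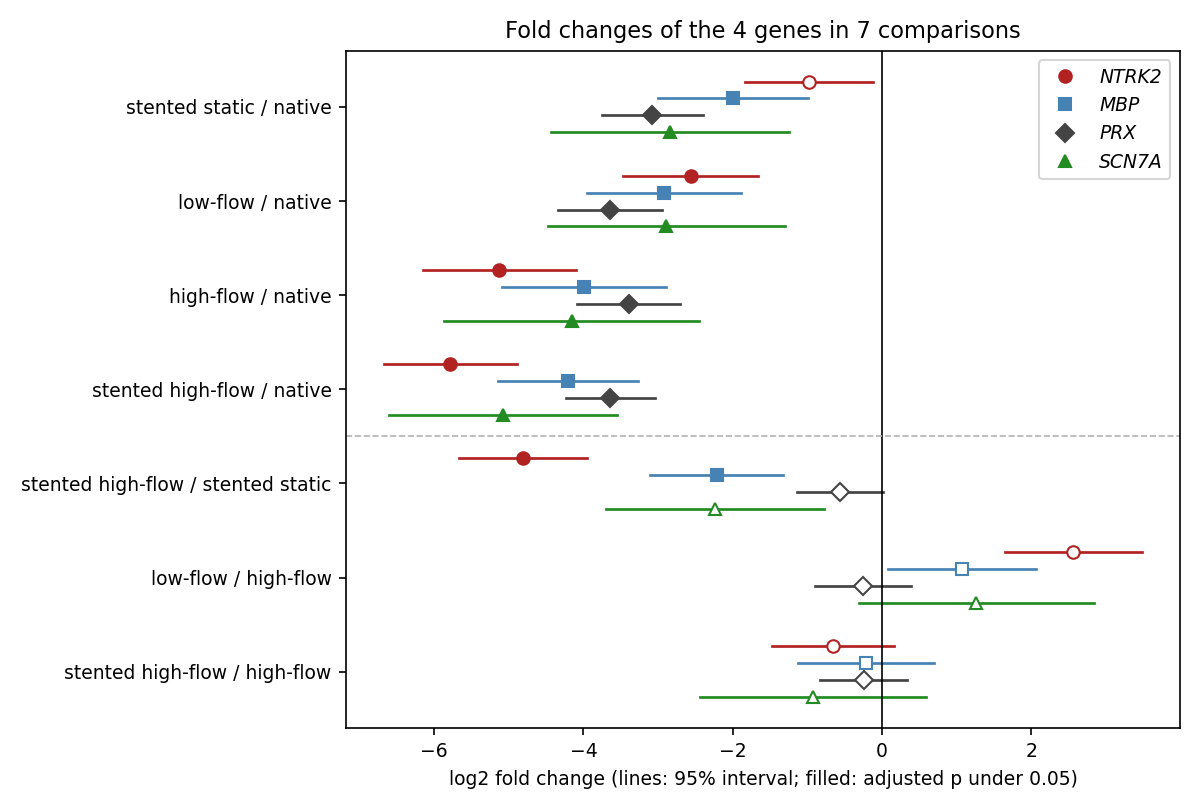
Log2 fold changes of the 4 genes in 7 comparisons, with lines for 95% intervals and filled symbols for an adjusted p under 0.05 by edgeR's quasi-likelihood test. The 4 upper comparisons share the native libraries. PRX spans -3.65 to -3.08 in these 4 comparisons, while NTRK2 spans -5.78 to -0.98.

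Counted by comparison, 4 of the 4 genes fell in stented high-flow (13.9% of all genes tested fell and 24.3% were called in either direction), 4 in high-flow (8.86% and 14.8%), 4 in low-flow (7.38% and 12.4%) and 3 in stented static vessels (7.19% and 12.7%). The 3 genes other than NTRK2 fell in all 4 cultured groups, as did 3.82% of genes tested, and all 4 fell in the 3 flow groups, as did 5.49%. Stented high-flow against stented static called 2 genes lower, NTRK2 and MBP, where 1.67% of genes were called lower and 2.85% in either direction, and DESeq2 called 3 of the 4 (8.78% of genes in either direction). In low-flow against high-flow edgeR called 0 of the 4 (0.104% of genes were called in either direction), against 1 by DESeq2 (0.678% of genes tested) and 2 at an unadjusted p under 0.05 (8.05%). Stented high-flow against high-flow called 0 with edgeR, 0 with DESeq2 and 0 at an unadjusted p under 0.05, where the shares of all genes were 0%, 0.0391% and 3.04%.

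Further comparisons between cultures were added after the values were seen. Of these, high-flow against stented static called NTRK2 lower (0.352% of genes were called lower and 0.827% in either direction), and stented high-flow against low-flow called NTRK2 lower (0.0717% and 0.15%). Low-flow against stented static called 0 of the 4 genes with edgeR (0% of genes), 1 with DESeq2 (2.27%) and 1 at an unadjusted p under 0.05 (11.3%). Both high-flow groups lay below both stented static and low-flow vessels by their means for NTRK2, MBP and SCN7A. The same held for 21.1% of genes tested, and 3.08% had the whole order of means that these 3 genes share.

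Separation of the libraries was more frequent than calls among all genes as well. Every library of the cultured group lay below both native libraries for 4 of the 4 genes in stented static (29.8% of all genes tested), in low-flow (34.4%), in high-flow (31.5%) and in stented high-flow vessels (27.6%). Stented high-flow libraries lay below both stented static libraries for 4 of the 4 genes (15.7%), high-flow libraries lay below both stented static libraries for 4 (20.7%), and stented high-flow libraries lay below both low-flow libraries for 3 (14.1%). Low-flow libraries lay above both high-flow libraries for NTRK2, MBP and SCN7A (22.9%) and below them for PRX (22.3%). Low-flow libraries lay below both stented static libraries for NTRK2 and PRX (21.8%), and stented high-flow libraries lay below both high-flow libraries for NTRK2 alone among the 4 genes (6.97%).

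The authors' deposited tables of changed genes list all 4 genes for stented high-flow (-5.79 for NTRK2, -4.21 for MBP, -3.64 for PRX and -5.09 for SCN7A, log2), for high-flow and for low-flow vessels. These tables hold 1117, 1129 and 928 genes in that order, where 3737, 2272 and 1904 genes were called here in either direction. Of the 4 genes, the authors' deposited table for stented static vessels lists PRX only, at -3.08. It holds 553 genes, where 1955 were called here. NTRK2 is absent from both sets of static calls. MBP and SCN7A were called here in stented static vessels, and those calls were lost above when some single libraries were left out. Why the shorter table of the authors does not list them was not tested.

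The unequal falls can be read within each library as ratios of counts. The ratio of NTRK2 to PRX counts was 2.09 and 2.91 in native and 5.75 and 16.8 in stented static vessels. It was 5.86 and 4.46 in low-flow, 0.818 and 0.667 in high-flow libraries and 0.318, 0.830 and 0.594 in stented high-flow vessels. Relative to PRX, NTRK2 was thus above the native ratios in all 4 stented static and low-flow libraries and below them in all 5 high-flow libraries. The ratio of MBP to PRX was 1.48 and 1.37 in native vessels, 3.89 and 1.88 in stented static and 2.15 and 2.59 in low-flow vessels, and between 0.582 and 1.36 in the 5 libraries under high flow. Ratios are a description without a test, and their absolute size depends on transcript length.

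**Figure D3:**
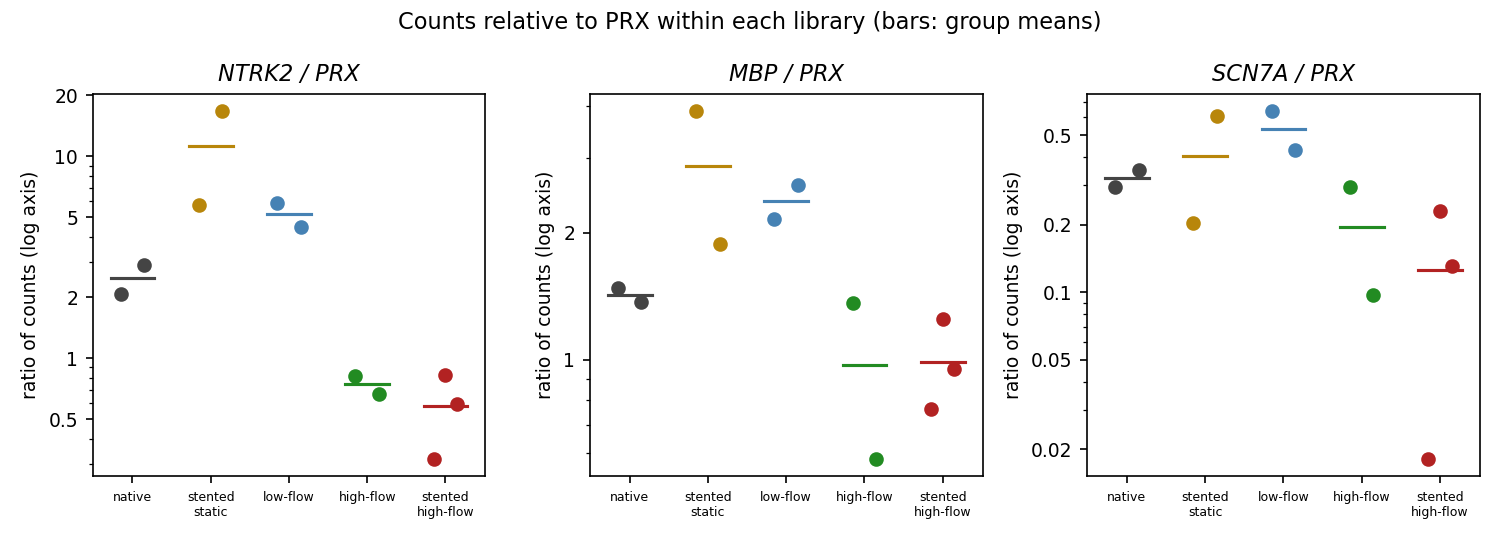
Counts of NTRK2, MBP and SCN7A divided by PRX counts of the same library, on a log axis, with points for libraries and bars for group means. NTRK2 relative to PRX is 5.75 and 16.8 in stented static and at most 0.83 under high flow. The lowest SCN7A point, 0.0182, rests on 2 counts.

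Across the 11 libraries, log2 CPM of NTRK2 correlated with MBP at Pearson r = 0.88 and with SCN7A at r = 0.90, and PRX with MBP at r = 0.88. Over the 9 cultured libraries alone, the same pairs gave 0.83, 0.83 and 0.52, and PRX with SCN7A gave 0.05 after 0.79 over all libraries. These values are descriptions over libraries that share groups and scaling.

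The genes most like each of the 4 across the 11 libraries were found by Pearson correlation of log2 CPM among genes with a symbol. For NTRK2 they were PLPP4 (r = 0.98), LAMA3 (0.98), PRDM11 (0.97), STAP1 (0.96) and TENT5C (0.95), and 80 genes, 0.521% of those tested, exceeded 0.9. The laminin chain gene LAMA3 had means of 24.03, 15.2, 5.92, 1.38 and 1.56 CPM in native vessels, stented static, low-flow, high-flow and stented high-flow vessels. For SCN7A they included PCDH19 (0.96), ANK3 (0.96) and SLC1A2 (0.96), with 95 genes over 0.9.

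For MBP the nearest genes were NEGR1 (r = 0.98), CACNA1E (0.98), GCNT3 (0.97), GPC3 (0.97) and TNS3 (0.97), with 249 genes over 0.9. For PRX they were CLEC4G, GRIA2, PRKCD, KY and PSTPIP1 (r from 0.98 to 0.99), with 396 genes over 0.9, or 2.58%. PRKCD, which encodes a protein kinase C, had 78.0 CPM in native and 21.3 to 26.9 CPM in the cultured groups. KY was at 0 counts in every cultured library, and CLEC4G and GRIA2 were at 0 in all 7 flow libraries. These 3 genes were low in native vessels too, with means of 1.05, 1.54 and 1.70 CPM for KY, CLEC4G and GRIA2. Their likeness to PRX thus rests on the step from a low native level to almost no counts.

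The myelin list, 15 tested genes for sheath proteins and their lipid enzymes other than MBP and PRX, was lower in culture almost throughout. Of the 15, 14 fell and 0 rose in the mean of the cultured groups, where 15.9% of all genes tested fell. Some of the 15, MAG and GJC3 among them, passed the filter on low counts only through the native libraries. Such genes could be tested only as lower in culture, so the count is not independent of the filter. Genes near 0 counts in culture entered the other lists in the same way. The median log2 fold change was -3.22 beside 0.02 for all genes. The exception was CNP at -0.51 (edgeR adjusted p = 0.144). Without native replicate 1, and likewise without native replicate 2, 9 of the 15 were called. Of all genes tested, 13.9% fell in stented high-flow, 7.38% in low-flow, 8.86% in high-flow and 7.19% in stented static vessels. Of the list, 12 fell in stented high-flow (median -3.90), 9 in low-flow (-2.95), 8 in high-flow (-3.49) and 4 in stented static vessels (-2.09). With single libraries left out, these counts ranged from 8 to 12, 1 to 12, 4 to 12 and 1 to 5. The library whose omission left 1 call in low-flow vessels could be either native or either low-flow library, and for stented static vessels it was native replicate 1. Without native replicate 1, 8 were called in stented high-flow vessels, and without high-flow replicate 1, 4 in high-flow vessels.

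CLDN19, a tight junction protein of the myelin sheath, was at 10.2 and 5.87 CPM in native vessels and at 0.0428 to 1.19 CPM in cultured libraries. It fell by 5.24 ± 0.43 (adjusted p = 1.75e-05).

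MAG, a glycoprotein of the sheath surface facing the axon, had 80 and 34 counts in the native libraries and 0 counts in all stented high-flow and low-flow libraries. With 3 counts over a group as the floor, MAG was at least 61.6-fold lower in stented high-flow and at least 60.3-fold lower in low-flow vessels. The connexin gene GJC3 had 40 native counts and 0 in high-flow and low-flow vessels, at least 15.9-fold and 21.2-fold lower. The list's medians were the same with these genes set at their bounds. PMP22, which many cell types express, fell by 0.90 ± 0.23 (edgeR adjusted p = 0.0135), and leaving out either native library ended that call (up to 0.169).

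Regulators of the Schwann cell state were called lower in part, beside 15.9% of all genes called lower in the mean of the cultured groups. Of 14 tested transcription factors and neuregulin pathway genes, 5 fell and 0 rose in the mean of the cultured groups, with a median of -0.90, and 2 to 7 fell when single libraries were left out (2 without native replicate 2). SOX10, the lineage factor of Schwann cells at all stages, was at 40.4 and 24.2 CPM in native vessels, 28.6 and 19.5 in stented static and 23.4 and 18.8 in low-flow vessels. It was at 9.97 and 5.59 CPM in high-flow and 1.51, 7.12 and 11.7 CPM in stented high-flow vessels. The stented static range overlapped the native range, both low-flow values lay just below it, and the 5 values under high flow lay below all of these.

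Of the 4 cultured groups, SOX10 was called in stented high-flow vessels only (-2.24 ± 0.61, edgeR adjusted p = 0.0214), and that call did not hold without native replicate 1, native replicate 2 or stented high-flow replicate 2 (up to 0.161). In stented static vessels it was at -0.42 ± 0.66 (0.711), and the direct difference from stented static to stented high-flow was -1.81 ± 0.60 (0.131). ERBB3, the neuregulin receptor of Schwann cells, fell by 1.96 ± 0.40 in stented high-flow (0.00581, lost without native replicate 1 at 0.0558) and by 2.23 ± 0.46 in high-flow vessels (0.0102, lost without native replicate 1, high-flow replicate 1 or high-flow replicate 2). It was at -0.11 ± 0.44 in stented static (0.893) and -0.64 ± 0.44 in low-flow vessels (0.374).

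EGR2, the factor that drives myelin genes and that other cells also induce early after stimulation, was at 44.9 and 44.2 CPM in native and 2.07 to 22.6 CPM in cultured libraries. It fell by 2.41 in the mean of the cultured groups (edgeR adjusted p = 0.000395), and every fit without a single library kept that call. ADAM22, the receptor on axons and neurons for LGI4, which Schwann cells secrete, fell by 5.28 ± 0.50 (adjusted p = 4.45e-05), from 11.135 and 10.2 CPM to at most 0.763 CPM in any cultured library. ADGRG6, an adhesion receptor needed for myelination, fell by 1.41 ± 0.33 (adjusted p = 0.00944), which did not hold when native replicate 2 was left out (0.165).

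The partners of periaxin did not follow PRX as a list. Among all genes, 15.9% were called lower in the mean of the cultured groups and 25.7% in either direction. Of 14 tested genes of the dystroglycan complex and its laminins, 5 fell and 1 rose in the mean of the cultured groups, with a median of -0.52 beside 0.02 for all genes, and 2 fell without native replicate 2. DRP2, which binds periaxin directly, was at 37.0 and 25.5 CPM in native vessels, 2.69 and 0.243 in stented static and at most 0.611 CPM under flow. It fell by 6.16 ± 0.65 (edgeR adjusted p = 8.40e-05), and every fit without a single library kept the call. DAG1, dystroglycan itself and broadly expressed, was at -0.05 (adjusted p = 0.887). DMD (-1.998), AHNAK (-1.96) and SNTB1 (-1.95), which other vessel cells also express, fell as well. The DMD call was lost in 6 of the 11 fits without a library (up to 0.160), and the AHNAK call without native replicate 2 (0.0734).

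Genes of non-myelinating and repair Schwann cells changed in both directions. For comparison, 15.9% of all genes were called lower in the mean of the cultured groups and 25.7% in either direction. Of 16 tested, 7 fell and 2 rose in the mean of the cultured groups (median -1.37), and 4 fell and 0 rose without native replicate 2. GAP43 (-5.00) and JUN (-3.38) were among the larger falls. GAP43, a growth cone protein, was not called when native replicate 2 was left out (edgeR adjusted p = 0.0563). JUN, the driver of the repair state and also an immediate early gene of most cells, was at 1537 and 1501 CPM in native and 60.3 to 304 CPM in cultured libraries. The adhesion molecule L1CAM fell by 1.87 ± 0.24 (adjusted p = 0.000305) and kept its call in every fit without a single library.

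By their group means, 11 of the 16 genes of this list were lower in both high-flow groups than in both the stented static and low-flow groups (68.8%, beside 21.1% of all genes tested and 40% of the myelin list). The share was 87.5% of the adipocyte, 75% of the macrophage, 70% of the neurotrophin receptor and 50% of the endothelial list. GFAP, an intermediate filament of glia, was at 67.0 and 43.6 CPM in native vessels, 42.6 and 61.5 in stented static, 64.8 and 43.0 in low-flow, 19.9 and 11.7 in high-flow and 2.37, 28.1 and 29.8 CPM in stented high-flow vessels. Stented high-flow replicate 1 was the lowest of its group for GFAP, SOX10, NGFR and SCN7A. No gene of the 3 Schwann cell lists was called in low-flow against high-flow by edgeR, 1 of 45 was by DESeq2 (0.678% of all genes tested), and 11 of 45 had an unadjusted p under 0.05 (8.05% of all genes tested).

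**Figure D4:**
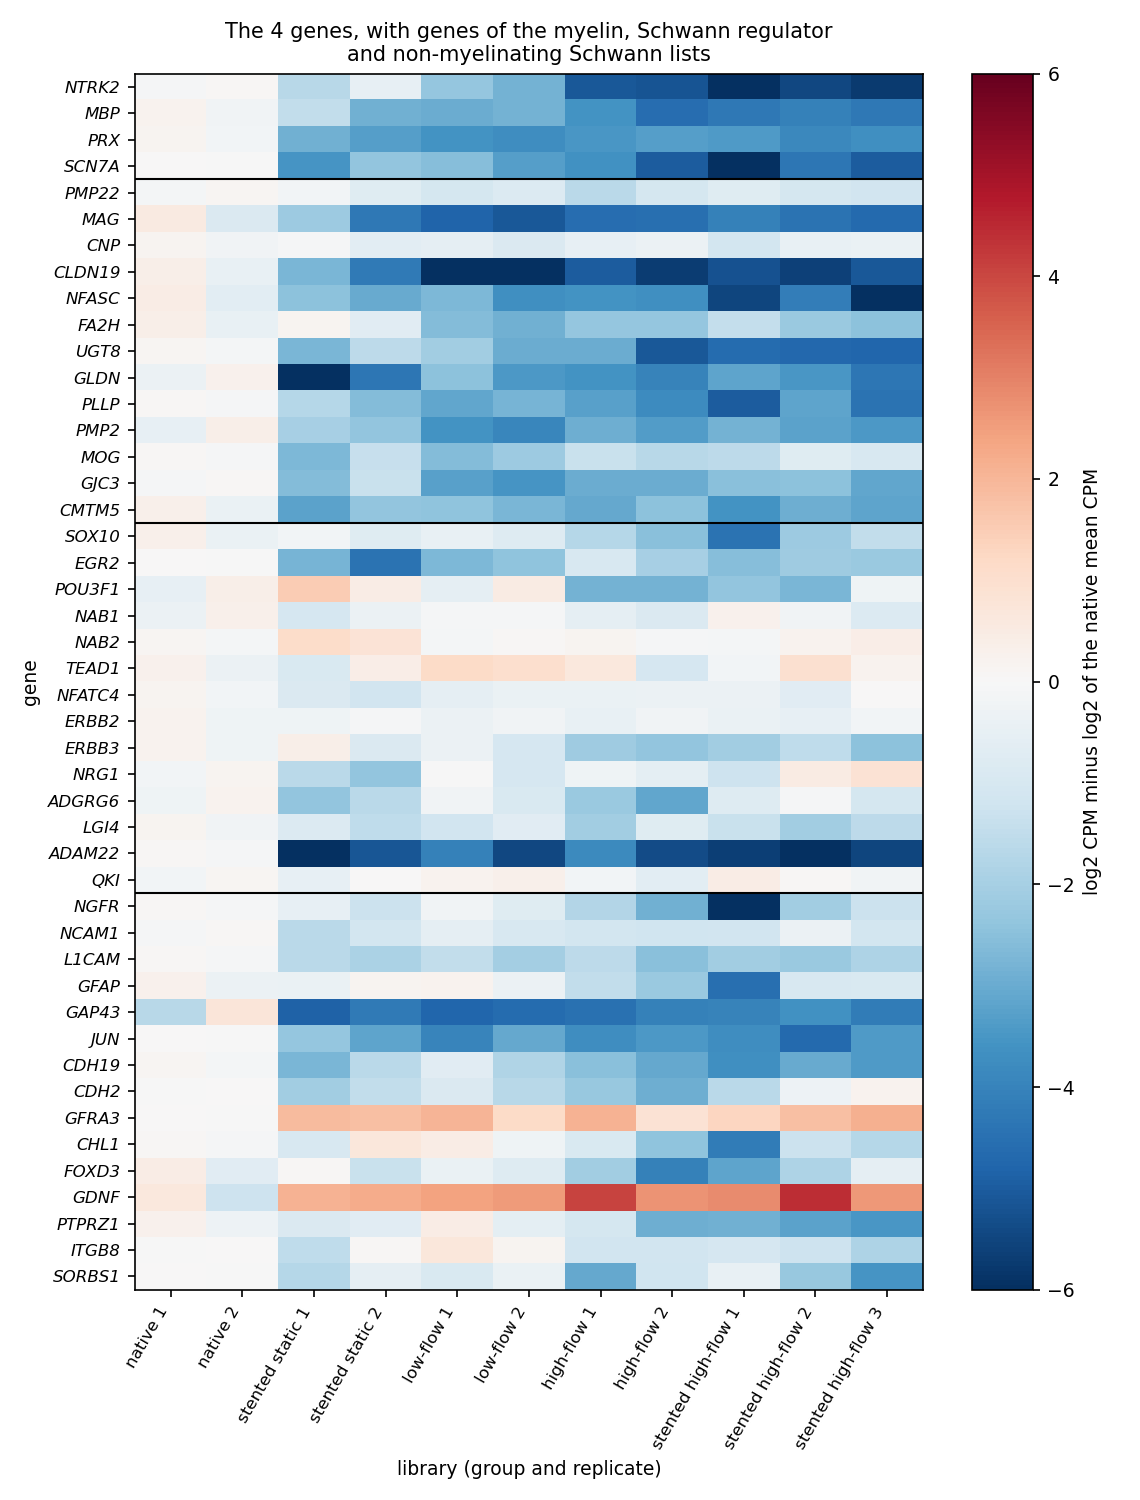
Log2 CPM minus log2 of the native mean for the 4 genes (top) and tested genes of the myelin, Schwann regulator and non-myelinating Schwann cell lists, in each of the 11 libraries, with values under 3 counts set to 3 counts and the colour scale ending at -6 and 6. CLDN19 and ADAM22 are low in all 9 cultured libraries, while SOX10, NGFR and GFAP are lowest in stented high-flow replicate 1.

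Among the neurotrophin ligands, whose 4 tested genes had a median of -0.59, NTF3 fell in culture and BDNF and NTF4 were low in all groups. NTF3, which encodes the TrkC ligand NT-3, was at 14.2 and 20.7 CPM in native and 0.144 to 1.22 CPM in cultured libraries, and fell by 4.79 ± 0.46 (edgeR adjusted p = 4.65e-05). The NTF3 call was kept whichever library was left out.

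BDNF, the main TrkB ligand, was at 0.130 and 0.115 CPM in native vessels and at 0.0395 and 0.122 CPM in stented static vessels. All of these values lie under the floor of 3 counts in a library, and the groups held 4 and 3 BDNF counts in sum. Low-flow vessels gave 1.07 and 0.629 CPM, high-flow vessels 0.407 and 0.616 CPM, and stented high-flow vessels 1.22, 0.449 and 0.703 CPM. All 7 flow libraries thus lay above the 4 native and static libraries, and the share of all genes with this separation was not counted. BDNF was called higher in stented high-flow vessels (2.62 ± 0.84, edgeR adjusted p = 0.0422), but 8 of the 11 fits that left out a library lost this call, with adjusted p up to 0.198. DESeq2 did not call it (adjusted p = 0.0531), and with edgeR stented high-flow against stented static was not called (3.28 ± 0.87, 0.0709). In that last comparison DESeq2 called 1 of the 4 ligands, as higher, beside 8.78% of all genes in either direction. NTF4, the other TrkB ligand, was at 0.188 CPM in native and 0.478 to 0.788 CPM in the cultured groups on average, with no call.

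Among the receptors other than NTRK2, 3 of 10 tested fell and 0 rose in the mean of the cultured groups, with a median of -0.64, and 2 to 4 fell when single libraries were left out (2 without either native library). Of all genes tested, 15.9% fell in that mean. NTRK3, which encodes the NT-3 receptor TrkC, was at 54.4 and 47.5 CPM in native and 11.3 and 35.2 CPM in stented static vessels. It was at 10.1 and 26.2 CPM in low-flow, 2.85 and 19.5 in high-flow and 3.52, 3.03 and 1.36 CPM in stented high-flow vessels. It fell by 4.28 ± 0.78 in stented high-flow vessels (edgeR adjusted p = 0.00321), a call kept in every fit without a single library. In the other 3 groups the estimates were -2.19 in high-flow, -1.49 in low-flow and -1.13 in stented static vessels, none past the threshold. From stented static to stented high-flow vessels the NTRK3 difference was -3.15 ± 0.76 (0.05255), which passed without either high-flow library (down to 0.0246).

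NGFR, the p75 receptor shared by all neurotrophins and a marker of non-myelinating Schwann cells, was at 70.4 and 63.8 CPM in native vessels, 48.2 and 27.5 in stented static and 58.6 and 40.7 in low-flow vessels. It was at 20.1 and 8.98 CPM in high-flow and 0.933, 15.9 and 27.5 CPM in stented high-flow vessels. NGFR was called in no comparison, and its estimate was -2.18 ± 0.83 in stented high-flow (edgeR adjusted p = 0.0792) and -0.43 ± 0.91 in low-flow vessels (0.798).

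The sortilin family and co-receptors went in different directions. SORT1, which encodes sortilin, a co-receptor of NGFR for unprocessed neurotrophins and a general sorting receptor, was at 103 and 113 CPM in native vessels, 81.1 and 106 in stented static and 164 to 314 CPM in the 7 flow libraries. It rose by 1.28 ± 0.30 in stented high-flow (edgeR adjusted p = 0.0110) and 1.08 ± 0.32 in high-flow vessels (0.0437), and by 1.49 ± 0.30 from stented static to stented high-flow (0.0299). The first call was lost without native replicate 1 or native replicate 2 (up to 0.112), and the others in 7 of the 11 fits without a library (up to 0.229 and 0.2355). SORCS1 fell by 3.32 ± 0.60 (0.00224) and LINGO1, a co-receptor of the Nogo receptor, by 1.85 ± 0.37 (0.00395) in the mean of the cultured groups.

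LINGO1 was at 29.8 and 31.8 CPM in native and 37.6 and 16.7 CPM in stented static vessels, with no call between them (-0.18 ± 0.52, edgeR adjusted p = 0.848). It was at 6.47 and 9.16 CPM in low-flow, 3.77 and 5.90 in high-flow and 8.68, 2.86 and 4.26 CPM in stented high-flow vessels. The difference from stented static to stented high-flow was -2.37 ± 0.48 (edgeR adjusted p = 0.0298), lost in 7 of 11 fits without a library (up to 0.226). SORCS2, SLITRK5 and KIDINS220 were called in none of the comparisons with native by edgeR or DESeq2. RTN4R, the Nogo receptor, was at 0.847 and 1.73 CPM in native and 12.3 and 2.43 CPM in stented static vessels, a difference not called by edgeR (2.51 ± 0.98, adjusted p = 0.114) but called by DESeq2 (0.0397). SORCS3 did not pass the filter on low counts.

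**Figure D5:**
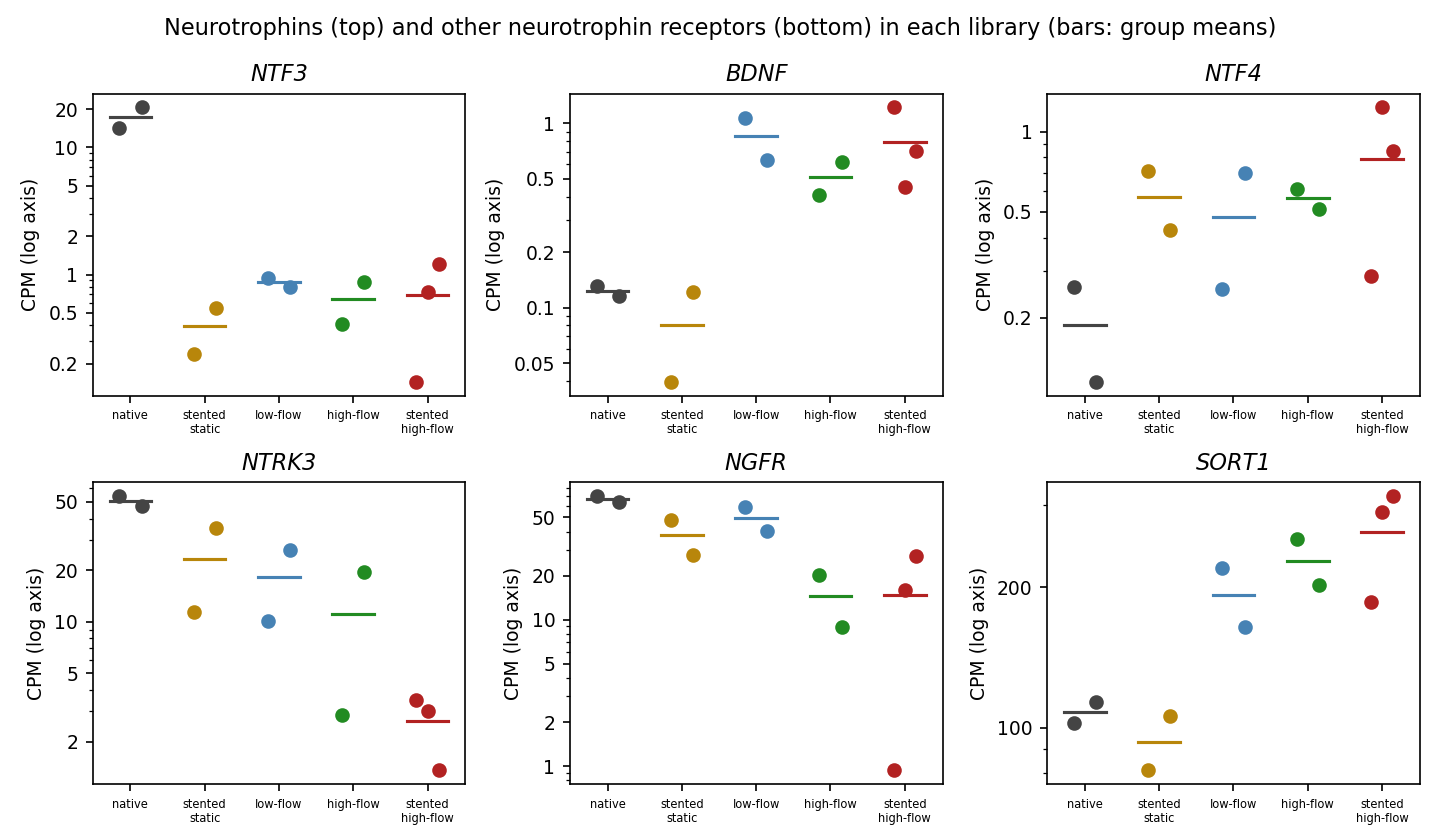
Levels of the neurotrophin genes NTF3, BDNF and NTF4 (top) and of the receptor genes NTRK3, NGFR and SORT1 (bottom) in each library, in CPM on log axes whose ranges differ between panels, with points for libraries and bars for group means. NTF3 is highest in native vessels, BDNF lies at 0.407 CPM or more in the 7 flow libraries, and SORT1 is at 164 CPM or more in the same libraries.

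Of 19 tested adaptors that carry the Trk signal, 2 fell and 1 rose in the mean of the cultured groups. Of all genes tested, 15.9% fell in that mean and 25.7% were called in either direction. The called adaptors were BEX3 (-2.11), IRAK1 (1.13) and GAB1 (-0.96), and the list had a median of -0.13. The IRAK1 call was lost in 8 and the GAB1 call in 4 of the 11 fits without a library, while BEX3 kept its call in all 11. Of 7 tested sodium channel genes other than SCN7A, 2 fell and 0 rose (median -1.49), beside the same shares of all genes. SCN2B, a beta subunit, fell by 4.53 ± 0.65 (edgeR adjusted p = 0.000589) and kept its call whichever library was left out, whereas SCN9A (-3.22) lost its call without native replicate 2 (0.369).

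Axonal and neuronal genes were uneven between the native libraries and did not all fall. Their sums were 39.7 and 249.8 CPM in native, 45.2 and 30.9 in stented static and 77.9 to 147.9 CPM in flow libraries. For comparison, 15.9% of all genes were called lower in the mean of the cultured groups. Of 15 tested, 8 fell and 0 rose in the mean of the cultured groups (median -1.67), but 1 fell without native replicate 2. NEFL, a neurofilament, was at 1.82 CPM in native replicate 1 and 54.8 CPM in replicate 2, beside 0 to 0.257 CPM in cultured libraries, and STMN2 was at 0.521 and 29.8 CPM. PRPH (-6.18) and SYT1 (-5.77) lay at 16.1 and 19.6 CPM in native replicate 2 against 1.24 and 1.11 CPM in replicate 1. Without native replicate 2 the STMN2, PRPH and SYT1 calls were lost (edgeR adjusted p = 0.475, 0.0651 and 0.105), and NEFL kept its call (0.0436). In the mean of the cultured groups, 12 estimates of the list were negative and 3 positive. UCHL1 was at 7.49 and 33.7 CPM in native, 9.12 and 15.3 in stented static and 46.4 to 68.2 CPM in flow libraries. TUBB3 was at 2.73 and 21.3 CPM in native, 6.14 and 8.97 in stented static and 15.6 to 62.0 CPM in flow libraries. The part of axonal content in the results for the 4 genes was not tested.

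Markers of other vessel cells moved with the cultures too. Their counts stand beside 15.9% of all genes called lower in the mean of the cultured groups and 25.7% in either direction. Contractile smooth muscle genes had 7 of 10 lower in the mean of the cultured groups (median -3.10), with summed levels of 31217 and 38699 CPM in native and 538 to 7779 CPM in cultured libraries. Adventitial fibroblast genes had 9 of 13 lower and 2 higher (median -1.76), from 11240 and 11409 CPM to 4418 to 8403 CPM. Pericyte genes had 7 of 10 lower and 2 higher (median -1.30), with 2499 and 2836 CPM in native and 1549 to 2582 CPM in cultured libraries. The part of these cells in the falls of the 4 genes was not tested.

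Adipocyte genes had 5 of 8 lower (median -3.09), with sums of 3066 and 1956 CPM in native vessels, 2701 and 257 in stented static, 198 and 293 in low-flow, 69.2 and 210 in high-flow and 38.5 to 102 CPM in stented high-flow vessels. The order of their group means was that of NTRK2. From stented static to stented high-flow 5 of the 8 fell and 0 rose, where 1.67% of all genes tested fell. This count was not recomputed with libraries left out, and the 2 stented static sums behind it, 2701 and 257 CPM, lie far apart. Within the stented static pair the adipocyte sum was higher in replicate 1, as were MBP and PRX, while NTRK2 and SCN7A were higher in replicate 2. Macrophage genes had 4 of 12 higher and 2 lower (median 0.38), with sums of 586 and 563 CPM in native vessels, 2316 and 1007 in stented static, 899 and 1128 in low-flow, 643 and 397 in high-flow and 414 to 837 CPM in stented high-flow vessels. Endothelial genes had 5 of 12 lower and 0 higher (median -0.80), with sums of 1212 and 1448 CPM in native vessels, 1729 and 609 in stented static and 463 to 978 CPM under flow. Their part in the order of the groups was not tested.

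Cardiomyocyte genes had 6 of 8 lower (median -6.67), with sums of 733 and 2186 CPM in native and 10.2 to 86.6 CPM in cultured libraries, and MYL2 and MYL3 at 0 counts in stented static and low-flow vessels. Lymphocyte genes had 3 of 5 lower (median -3.11), with sums of 23.7 and 28.8 CPM in native and 7.01 to 28.1 CPM in cultured libraries, and CD3E at 0 counts in all 3 flow groups. Their part in the results was not tested.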

How the data were processed

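Gene counts were taken from 2 tables deposited by the authors, which share their 2 native columns and were joined by gene. Per the submitters' processing notes, the tools were Trimmomatic, FastQC and DESeq2 and the build was Sscrofa11.1. Aligner, annotation release and strand use were not given in the sources used here. Lists that the authors deposited give log2 fold changes and were used only where named. Gene symbols came from a table of Ensembl identifiers that named 14857 of them.

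Counts were tested in R 4.3.3 with edgeR 4.0.16 (filterByExpr, TMM scaling, glmQLFit and glmQLFTest, 1 joint fit of the 5 groups, Benjamini-Hochberg over 15348 genes, threshold 0.05). Dispersion was 0.126 in common, and the prior and residual degrees of freedom were 5.02 and 6. A standard error is the absolute log2 fold change divided by the root of F, and intervals of 95% use the same degrees of freedom. The correlations used log2 CPM with a prior count of 2. The script was tested on simulated data.

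The 4 genes and the 17 lists were chosen with earlier results of these data known. Of 240 list symbols, 212 matched. The lists are myelin proteins, periaxin partners, Schwann regulators, non-myelinating and repair Schwann cells, neurotrophin ligands, neurotrophin receptors, Trk adaptors, sodium channels, axons and neurons, endothelium, pericytes, smooth muscle, adventitial fibroblasts, adipocytes, cardiomyocytes, macrophages and lymphocytes. Named are the 4 genes, up to 4 called genes of largest change per nerve list, the neurotrophin ligands and receptors, and the 5 most similar genes per member. SOX10, GFAP, L1CAM, PMP22, CNP, DAG1, GFRA3, SNAP25, MYL2, UCHL1 and TUBB3 were named after their values were seen. Some genes of the lists and of the most similar genes are not reported here. The 8 planned comparisons were joined by 3 added ones. Alternatives were DESeq2 1.42.0, limma-voom (limma 3.58.1), RLE size factors, a filter of 10 counts in each library or none, a stricter threshold (0.01), a block for the replicate number, fits of the compared groups or of 1 count table alone, removal of mitochondrially encoded genes, and each library left out. For the nerve lists, leaving out libraries was chosen after seeing the data.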

Additional observations from a re-analysis of the deposited data

How the results depend on the processing

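The log2 fold changes of the 4 genes in the 8 planned comparisons were recomputed with single libraries left out and under the other alternatives. In the first set 332 kept direction and side of the threshold, 15 lost and 4 gained a call, and 1 turned sign, MBP in stented high-flow against high-flow (0.38 without high-flow replicate 1, with a range from -0.66 to 0.38). In the second set 289 kept both, 6 lost and 5 gained a call, and none turned sign. The number of the 4 genes called in low-flow against high-flow was 0, but 1 with DESeq2, 1 without a filter and 1 with the libraries of 1 count table, and 0 to 1 with single libraries left out. In stented high-flow against stented static it was 2, but 3 with DESeq2, 3 without a filter, 1 at a threshold of 0.01, 1 with only the groups compared, and 1 to 2 with single libraries left out. In stented static against native it was 3, but 1 at a threshold of 0.01 and 1 to 3 with single libraries left out. In low-flow against native it was 4, and 2 to 4 with single libraries left out. The cause of these changes was not tested. SCN7A was not tested with at least 10 counts in every library.

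Whether libraries of different groups were paired could not be decided from the replicate numbers, which follow the order of the titles. Deviations within a group of 2 libraries mirror each other, so pairs of libraries are not independent checks. The 2 libraries that share the number 25 have different replicate numbers and were not compared. Only libraries with the same replicate number were set side by side. The correlation of their deviations from the group means was over 0.1 in 6 of 20 pairs, with a range from -0.33 to 0.18. With the replicate block 1 of the 4 genes was called in stented high-flow against stented static, MBP losing its call (adjusted p = 0.0626), and the other counts of the 4 genes were as without it.

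With 2 or 3 libraries a group, small differences between cultures may be missed, and SCN7A rests on 2 counts in 1 library. Counts of calls over all genes, and with them the background shares, moved by over 1.5 times with other tools and libraries. In stented high-flow against stented static they were 438 with edgeR, 1350 with DESeq2, 1003 without a filter and 95 without stented static replicate 1. Without native replicate 1 the count for the mean of the cultured groups went from 3949 to 1693, and without low-flow replicate 1 that for low-flow against native went from 1904 to 361.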

Other observations

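GDNF and its relative's receptor GFRA3, which belong to the trophic signals of denervated Schwann cells, were the 2 genes of the non-myelinating and repair list that rose. GDNF was at 0.847 and 0.230 CPM in native vessels and at 2.29 to 11.6 CPM in the 9 cultured libraries, with stented high-flow replicate 2 and high-flow replicate 1 highest. It rose by 2.93 ± 0.74 on the log2 scale in the mean of the cultured groups (edgeR adjusted p = 0.0140), which did not hold when native replicate 2 was left out (0.143). GFRA3, which encodes the artemin receptor, was at 1.24 and 1.21 CPM in native vessels and at 2.21 to 5.29 CPM in culture. It rose by 1.73 ± 0.48 (adjusted p = 0.0228), a call lost without either native library (up to 0.155). GDNF is also made by cells other than Schwann cells, which these libraries cannot separate.

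SNAP25, a vesicle fusion protein of neurons and secretory cells, had 0 counts in native replicate 1 and in both stented static libraries, and 200 counts (11.5 CPM) in native replicate 2. It was detected in all 7 flow libraries, at 0.979 and 1.41 CPM in low-flow, 2.93 and 5.34 CPM in high-flow and 3.16 to 9.09 CPM in stented high-flow vessels. With 3 counts over the group as the floor, stented static vessels were at least 85-fold below the pooled native libraries, and all of those native counts came from 1 library. The edgeR call of stented static against native (adjusted p = 0.0371) was lost in 7 of the 11 fits without a library, native replicate 2 among them. Stented high-flow against stented static missed the threshold for SNAP25 (edgeR adjusted p = 0.0776). The gene was named after its values were seen.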
